A study of Mus musculus with 12 samples.

Results

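The genes described here encode the proteins of the cytosolic ribosome of the mouse. They were taken as the rows of a gene count table whose symbol has the form of a ribosomal protein of the large (Rpl, Rplp) or small (Rps, Rpsa) subunit, leaving out rows named as numbered pseudogenes, and that had more than 0.5 CPM (counts scaled to the same total in every library) in at least 2 of 12 libraries. Of 54532 rows, 89 had such a symbol, and 86 of them passed the filter among the 14894 genes tested. These 86 members comprised 51 large subunit and 35 small subunit genes. By the annotation, 81 were protein coding and 5 (Rpl6l, Rpl32l, Rps3a2, Rps3a3 and Rps4l) were pseudogenes that carry an ordinary symbol.

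The ribosome consists of a small subunit, which reads the mRNA, and a large subunit, which joins the amino acids, and every protein of both is needed in about equal number. Most ribosomal protein mRNAs are short, abundant and begin with a run of pyrimidines, the 5′ terminal oligopyrimidine (TOP) motif, through which mTORC1 and the RNA-binding protein LARP1 control their translation and stability. In bone marrow, loss of 1 copy of several of these genes causes Diamond-Blackfan anemia, a failure of red cell production.

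The study asked how indole-3-propionic acid (IPA), a product of gut bacteria from tryptophan, affects the formation of myeloid-derived suppressor cells from bone marrow. Wild-type C57BL/6 bone marrow cells were cultured in RPMI with serum, GM-CSF and IL-6 and given vehicle (labelled 0.1 DMSO), 10 µM IPA or 50 µM IPA, renewed with the medium on day 3, and were collected on day 5. Each group held 4 RNA-seq libraries of polyadenylated RNA, all 12 of them under the same cytokines and with no uncultured or cytokine-free group. Nothing states that replicates came from separate mice or cultures, so the p-values measure only the spread between these samples, which may be technical. By flow cytometry of such cultures, the study reports slightly lower cell viability at the higher dose and no such effect at the lower dose. For that reason its authors centred their RNA-seq analysis on the lower dose. The part of reduced viability in the differences found here at the higher dose was not tested.

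The libraries held 20451312 to 28038612 counts assigned to genes. The summed level of 8 pan-myeloid markers, among them Ptprc, Itgam and Lyz2, was 10604 to 14378 CPM over the 12 libraries, against at most 61.9 CPM for 7 B cell markers, 3.72 CPM for 7 T and NK cell markers and 2.54 CPM for 8 erythroid markers. The cultures were therefore myeloid by their RNA at every dose. In bulk RNA, fewer cells of a type and less RNA per cell cannot be told apart.

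Annotated transcription starts of the members carried pyrimidine runs more often than those of other genes. RefSeq promoter sequences (build GRCm38.p6) were at hand for 62 of the 86 members, with 74 annotated starts. A C at the annotated start followed by at least 4 further C or T on the transcribed strand (a run of at least 5) was found for 14 of these 62 genes (22.6%), against 3.01% of all 27025 genes with a sequence. An unbroken run of at least 8 C or T anywhere from 15 bases before to 15 bases from the start was found for 28 of the 62 (45.2%), against 13.9% of all genes. Shown are the 30 bases around the start, transcribed strand, of the 5 members with a printed sequence that passed the test in a comparison below (Rpl4, Rpl9, Rps6, Rps18 and Rps23), with the longest run of C and T in capitals.
Rpl4, chr9:64173372-64173401, plus strand: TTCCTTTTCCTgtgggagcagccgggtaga
Rpl9, chr5:65391417-65391446, minus strand: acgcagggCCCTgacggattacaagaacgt
Rps6, chr4:86857353-86857382, minus strand: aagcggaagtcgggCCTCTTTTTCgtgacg
Rps18, chr17:33955651-33955680, minus strand: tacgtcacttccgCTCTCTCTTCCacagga
Rps23, chr13:90923107-90923136, plus strand: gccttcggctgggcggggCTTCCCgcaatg
In Rps6 and Rps18 the run spanned the annotated start itself, whereas in Rpl4 it lay wholly before the RefSeq start and held the gene start of the GENCODE annotation (64173375), and in Rpl9 and Rps23 it was 4 and 6 bases long. A run in these letters is a description of the annotated position and does not show where transcription began in these cells.

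Members were among the most abundant mRNAs. Per kilobase of exon (RPKM, from the mean CPM of the vehicle libraries and the union of annotated exons), their median was 179 against 4.63 for all genes tested, and 59 of the 86 were above 100 RPKM. The median level was 168 RPKM for large and 213 RPKM for small subunit members. The highest were Rplp1 at 1291 RPKM and Rplp0 at 1266 RPKM, both parts of the P stalk that recruits elongation factors, followed by Rps3a1 of the small subunit at 1075 RPKM. The lowest were Rpl39l at 0.468 RPKM, Rps10 at 0.565 RPKM and Rpl3l at 0.845 RPKM. Rpl39l and Rpl3l are paralogs known from testis and striated muscle, whereas Rps10 encodes a core protein of every ribosome.

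The 10 members under 30 RPKM were thus of more than one kind. They were the paralogs Rpl3l, Rpl22l1 and Rpl39l, the annotated pseudogenes Rpl32l, Rps3a2, Rps3a3 and Rps4l, and the ordinary genes Rps10, Rpl13a and Rpl23a. Rps10 and Rpl13a were the only members that shared more than 20% of their exon bases with another gene on the same strand: 20.6% of Rps10 exon bases lay in a readthrough gene with Nudt3, and 35.4% of Rpl13a exon bases in other annotated genes, small nucleolar RNAs among them. Of the 50-base stretches of Rpl23a transcripts, 82.6% also occurred in another gene. Rpl24, another core protein, had 0 to 22 counts per library and failed the filter, and 47.0% of its exon bases lay in Gm28037, an overlapping transcript on the same strand. Rpl10l and Rps12l1, the other rows that failed, had 0 counts in all 12 libraries. Reads that match 2 genes are commonly left uncounted, and the setting used is not given in the sources used here, so the levels of these genes cannot be compared with those of their neighbours in the ribosome. Over all members, the median share of 50-base stretches found in another gene was 52.2%, from 0% in 3 members to 98.6% in Rps27.

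Together the members took 3.22% to 4.89% of all counts of a library. The large subunit share was 1.89%, 1.82%, 2.09% and 2.38% in the vehicle libraries (replicates 1 to 4), 2.30%, 2.17%, 1.95% and 1.95% at 10 µM, and 2.27%, 2.26%, 2.74% and 2.31% at 50 µM. The small subunit share was 1.47%, 1.40%, 1.63% and 1.90% in vehicle, 1.78%, 1.68%, 1.52% and 1.47% at 10 µM, and 1.74%, 1.76%, 2.16% and 1.76% at 50 µM. Both subunits were high and low in the same libraries, vehicle replicate 4 stood above the other vehicle libraries, 50 µM replicate 3 stood above all others, and the groups overlapped. The summed share was 3.64% ± 0.47 (SD, n = 4) in vehicle, 3.70% ± 0.315 at 10 µM and 4.25% ± 0.43 at 50 µM.

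**Figure D1:**
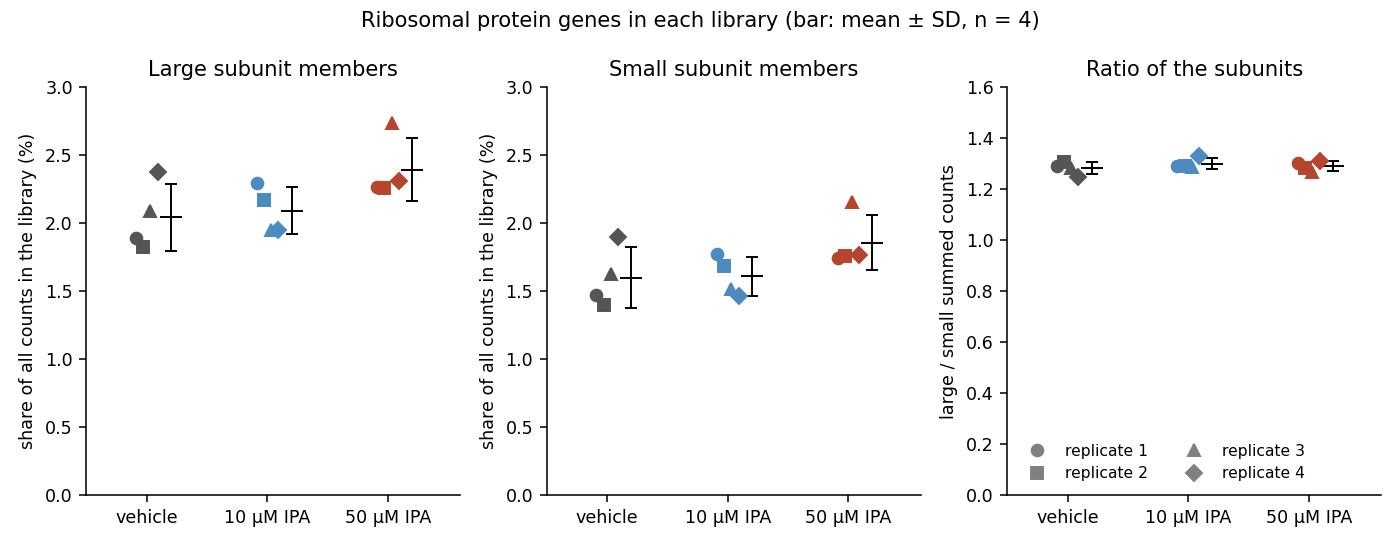
Share of all counts (%) taken by the 51 large subunit members (left) and the 35 small subunit members (middle) in each library, and the ratio of their summed counts (right), by group; each symbol is 1 replicate and bars are the mean ± SD of 4. The shares overlapped between groups, with 50 µM replicate 3 highest, while the ratio stayed between 1.25 and 1.33 in all 12 libraries.

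The balance between the subunits varied far less than their amount. Summed large subunit counts were 1.28 ± 0.024 times the small subunit counts in vehicle, 1.30 ± 0.0204 times at 10 µM and 1.29 ± 0.0193 times at 50 µM (SD, n = 4). Over the 12 libraries the ratio ran from 1.25 in vehicle replicate 4 to 1.33 in 10 µM replicate 4, so the groups overlapped. Taken as medians over genes, the order of the subunits was the opposite: the median log2 level of large subunit members was below that of small subunit members by 0.23 ± 0.04 in vehicle, 0.27 ± 0.05 at 10 µM and 0.31 ± 0.03 at 50 µM on the log2 CPM scale. By these medians all 50 µM libraries (-0.34 to -0.27) lay below all vehicle libraries (-0.26 to -0.17). Those at 10 µM (-0.31 to -0.21) overlapped both. With means in place of medians the differences were -0.25, -0.23 and -0.23 and the groups overlapped, so that the order of the doses was not kept. These levels are not per length. The ratio of sums, unlike the medians, also depends on the number of genes in each subunit, 51 against 35, and gives most weight to abundant genes such as Rplp0 at 2101 CPM and Rpl4 at 1423 CPM in vehicle.

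At 10 µM IPA no member passed the test against vehicle (edgeR quasi-likelihood, Benjamini-Hochberg adjusted p under 0.05 over all genes tested). The background was small as well: 0.329% of all genes were called higher and 0.0806% lower. DESeq2 and limma-voom also called 0 members, beside 1.32% and 0.336% of all genes called higher, and 1 of 86 had an unadjusted p under 0.05 with each of the 3 tools, against 1308 of all 14894 genes with edgeR. The median log2 fold change was 0.04 over all members, 0.07 over large and 0.02 over small subunit members, beside -0.01 over all genes. A positive value was found for 70 of 86 members (81.4%), against 48.2% of all genes. The sign of the median rested on single libraries: it was -0.02 without vehicle replicate 2, -0.0089 without 10 µM replicate 1 and 0.14 without vehicle replicate 4. No member had all 4 libraries of 1 group above the other, where 3.57% of all genes did so in the higher and 2.56% in the lower direction at 10 µM.

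The 2 members with the smallest p at 10 µM were both annotated pseudogenes with few counts. Rps4l had 5.33, 4.31, 6.22 and 6.40 CPM in vehicle and 5.86, 7.55, 10.9 and 7.32 CPM at 10 µM, a log2 fold change of 0.51 ± 0.20 (SE) with adjusted p = 0.448 by edgeR. Rpl32l had 0.416, 0.297, 0.313 and 0.636 CPM in vehicle and 1.09, 0.581, 0.677 and 0.595 CPM at 10 µM, a log2 fold change of 0.82 ± 0.43 with adjusted p = 0.639 by edgeR. In both genes the groups overlapped.

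At 50 µM IPA against vehicle, 3 members rose and none fell. They were Rpl4, Rpl17 and Rps23, which is 3.49% of the members, beside a background of 7.0% of all genes called higher and 6.5% called lower. DESeq2 called 10 members higher (11.6%) beside 8.47% of all genes, limma-voom called 3 beside 6.98%, and neither called a member lower. An unadjusted p under 0.05 was reached by 39 of 86 members (45.3%), against 27.9% of all genes tested. The median log2 fold change was 0.22 over all members, 0.22 over large and 0.22 over small subunit members, beside 0.01 over all genes. A positive value was found for 83 of 86 members (96.5%), against 51.8% of all genes. The 3 members with a negative value were Rpl3l (-0.39), Rps10 (-0.48) and Rpl7l1 (-0.11), of which the first 2 had about 1 CPM.

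In 4 members (4.65%) all 50 µM libraries lay above all vehicle libraries, namely Rpl4, Rpl17, Rpl3 and Rps3a2, where 9.45% of all genes did so in the higher and 10.5% in the lower direction.

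At 50 µM against 10 µM, 8 members rose and none fell, 3 of the large subunit (Rpl4, Rpl9 and Rpl17) and 5 of the small subunit (among them Rps6, Rps18, Rps23 and Rps27a). This is 9.30% of the members, beside 7.52% of all genes called higher and 7.85% called lower. The median log2 fold change was 0.17 over all, 0.17 over large and 0.19 over small subunit members, beside 0.01 over all genes, and 79 of 86 were positive. The groups did not overlap in 10 members, all higher at 50 µM, where 9.43% of all genes were separated in the higher and 10.9% in the lower direction. This comparison shares its 50 µM libraries with the comparison against vehicle, and the comparisons against vehicle share the vehicle libraries, so their values are given side by side and are not independent of each other.

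**Figure D2:**
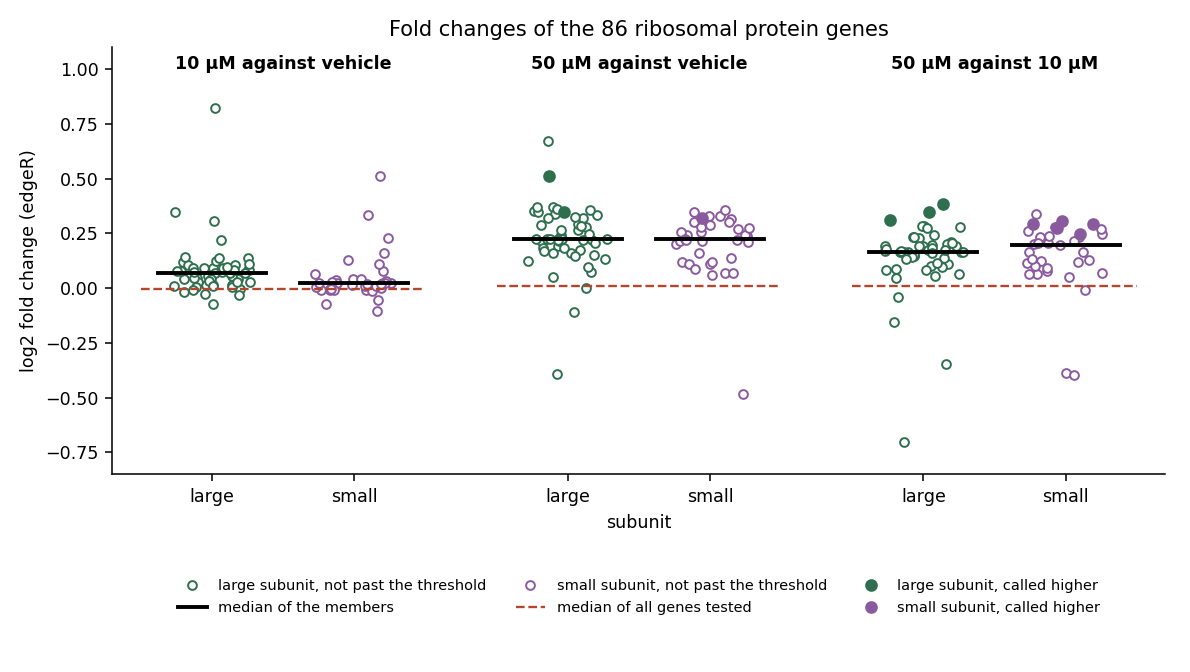
The log2 fold change (edgeR, vertical axis) of each of the 86 members by subunit in the 3 comparisons; filled points passed the adjusted threshold, black lines are the medians of the members and dashed lines the median of all genes tested. Large and small subunit members lay around the same median in both comparisons with 50 µM, 0.22 against vehicle, with most single genes short of the threshold.

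Rpl4, whose protein reaches into the tunnel through which new peptides leave the ribosome, was the clearest of these genes. On chr9:64173375-64178666 (GRCm38, plus strand), it had 1384, 1301, 1471 and 1536 CPM in vehicle, 1527, 1461, 1420 and 1410 CPM at 10 µM, and 1696, 1746, 1903 and 1852 CPM at 50 µM. All 50 µM libraries were above all others. The fitted fold was 1.27 against vehicle (log2 0.35 ± 0.07, SE, adjusted p = 0.00827, edgeR) and 1.24 against 10 µM (log2 0.31 ± 0.06, adjusted p = 0.0021). It passed in 8 of 8 fits that left out 1 library in either comparison. Of its 50-base stretches 16.5% also occur in 1 other gene, and 7.87% of its exon bases lie in the small nucleolar RNA genes Snord16a and Gm22455 on the same strand.

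Rpl17, at the rim of the same tunnel, had the largest fold among the called members. It had 232, 225, 273 and 316 CPM in vehicle, 339, 288, 252 and 261 CPM at 10 µM, and 329, 331, 493 and 332 CPM at 50 µM. The 50 µM libraries lay above all vehicle libraries but overlapped those at 10 µM, and replicate 3 stood apart from the other 3. The log2 fold change was 0.51 ± 0.14 against vehicle (adjusted p = 0.0288, edgeR) and 0.39 ± 0.12 against 10 µM (adjusted p = 0.0462, edgeR). Without 50 µM replicate 3 these were 0.34 and 0.22 and neither passed, and of the 8 fits that left out 1 library it passed in 4 against vehicle and in 3 against 10 µM. The rows Rpl17-ps10 and Rpl17-ps5 are pseudogenes of the same gene, and 78.7% of the 50-base stretches of Rpl17 occur in other genes. Rpl17-ps10 had 150 CPM ± 20.4 in vehicle, 144 CPM ± 9.19 at 10 µM and 199 CPM ± 31.0 at 50 µM (SD, n = 4), and was also called higher in both comparisons with 50 µM.

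Rps23, a protein of the decoding centre of the small subunit, had 400, 370, 433 and 485 CPM in vehicle, 467, 453, 399 and 396 CPM at 10 µM, and 505, 483, 609 and 501 CPM at 50 µM. The lowest 50 µM library was just under the highest vehicle library, while all 4 lay above those at 10 µM. The log2 fold change was 0.32 ± 0.10 against vehicle (adjusted p = 0.0454, edgeR) and 0.29 ± 0.08 against 10 µM (adjusted p = 0.0217, edgeR). Leaving out 1 library at a time, it passed in 1 of 8 fits against vehicle and in 6 of 8 against 10 µM.

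A further 4 members called at 50 µM against 10 µM had a common form across the libraries. Rps6, the substrate of the S6 kinases downstream of mTORC1, had 713, 667, 806 and 992 CPM in vehicle, 858, 826, 759 and 717 CPM at 10 µM, and 868, 886, 1086 and 898 CPM at 50 µM. Rps27a, made as a fusion with ubiquitin, had 537, 496, 588 and 721 CPM in vehicle, 574, 603, 537 and 513 CPM at 10 µM, and 634, 624, 816 and 648 CPM at 50 µM. In both, the 50 µM libraries were above all at 10 µM, and vehicle replicate 4 was above 3 of the 4 at 50 µM. Rps18 had 578, 549, 664 and 788 CPM in vehicle, 713, 718, 610 and 601 CPM at 10 µM, and 747, 769, 1007 and 740 CPM at 50 µM. Rpl9 had 517, 471, 569 and 690 CPM in vehicle, 629, 589, 521 and 518 CPM at 10 µM, and 637, 665, 917 and 645 CPM at 50 µM.

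Against 10 µM these 4 genes had log2 fold changes of 0.25 ± 0.08 (Rps6), 0.29 ± 0.08 (Rps27a), 0.31 ± 0.10 (Rps18) and 0.35 ± 0.11 (Rpl9), with adjusted p from 0.0276 to 0.0482 by edgeR. Leaving out 1 library at a time, Rps6 passed in 2, Rps18 in 4, Rpl9 in 4 and Rps27a in 5 of 8 fits, with the highest adjusted p without 10 µM replicate 4 for Rps6 and without 10 µM replicate 3 for the others. Against vehicle the same genes had 0.24 ± 0.12, 0.22 ± 0.12, 0.35 ± 0.12 and 0.36 ± 0.13, and none passed with edgeR, while Rps18 passed in 5, Rpl9 in 3, Rps6 in 1 and Rps27a in 1 of 20 alternative fits. The values against vehicle were of similar size with a wider error, and the vehicle libraries of these genes were spread more widely than those at 10 µM, with an SD of 94.2 to 144 CPM against 39.8 to 63.7 CPM.

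**Figure D3:**
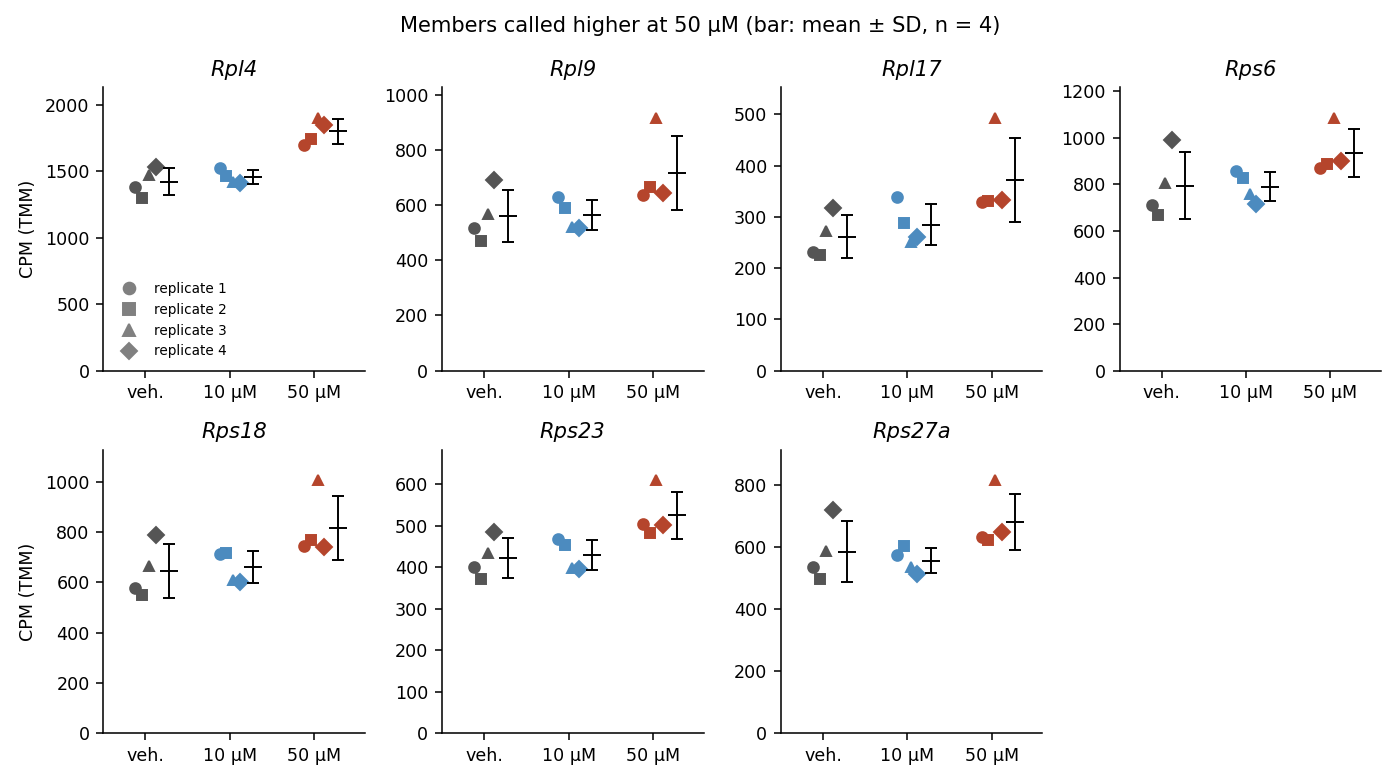
Level (CPM after TMM scaling, vertical axis from 0) of 7 of the 8 members called higher in a comparison with 50 µM, in each of the 12 libraries by group; symbols are replicates and bars the mean ± SD of 4. Rpl4 had all 50 µM libraries above all others, whereas in each of the other 6 genes vehicle replicate 4 or 10 µM replicate 1 reached the range of the 50 µM libraries, in which replicate 3 was highest.

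Which libraries entered the fit set how many members were called. Without vehicle replicate 4, 61 members rose at 50 µM against vehicle (39 large and 22 small subunit, 70.9%) beside 9.4% of all genes, with a median log2 fold change of 0.33. Without 50 µM replicate 3, 1 rose beside 5.28% of all genes, with a median of 0.15. Without vehicle replicate 1 or without vehicle replicate 2, 1 rose beside 4.94% and 6.98% of all genes. In each of these 3 fits the member that rose was Rpl4.

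Against 10 µM, leaving out 10 µM replicate 1 gave 28 members called higher and 1 (Rps4l) called lower, beside 7.27% of all genes called higher. Without 10 µM replicate 2 there were 5 beside 5.15%, and without replicate 3 or replicate 4 of that group there was 1 beside 5.98% and 7.39%. Without 50 µM replicate 3 there were 3 beside 6.63%, Rpl4 and Rps23 among them.

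In each group, the library with the highest share of members also had the highest level of short transcripts relative to long ones. A smooth fit of each library's deviation from the mean of all 12 on transcript length gave the level at 700 bases minus that at 3000 bases. On the log2 scale this was -0.14, -0.17, -0.03 and 0.12 in vehicle (replicates 1 to 4), 0.14, 0.04, -0.06 and -0.11 at 10 µM, and 0.02, -0.01, 0.23 and -0.02 at 50 µM. The highest value of each group was in vehicle replicate 4, 10 µM replicate 1 and 50 µM replicate 3, which also had the highest share of members in their group. Between groups this order was not kept. The share was 4.01%, 4.02% and 4.08% in 50 µM replicates 1, 2 and 4, where the value was near 0. It was 3.85% in 10 µM replicate 2, where the value was 0.04. The median principal transcript of the members was 786 bases, against 2556 bases over all genes tested.

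With each library's length trend taken out by an offset, a setting added after seeing the data, 16 members rose at 50 µM against vehicle (12 large and 4 small subunit) beside 8.65% of all genes, with a median of 0.14 over the members and 0.00129 over all genes. Against 10 µM, 32 rose (17 large and 15 small subunit) beside 9.67% of all genes, with a median of 0.14. Among the 16 were Rpl4, Rpl17 and Rps23, and also Rpl3, Rpl5, Rpl9, Rpl41, Rps18 and Rps19, which did not pass against vehicle without the offset. The offset lowered the median fold change and raised the number of calls. The trend was fitted over genes that include the members.

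**Figure D4:**
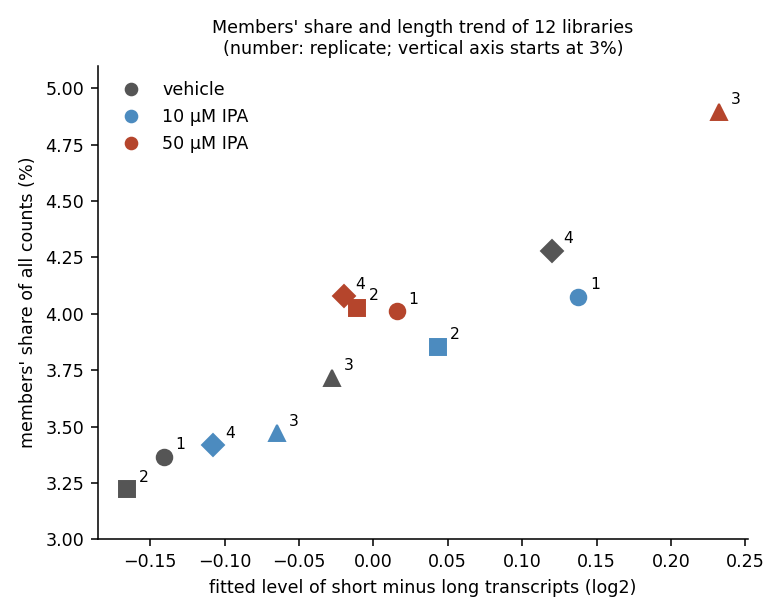
Share of all counts taken by the 86 members (vertical axis, %, starting at 3) against the fitted level of short minus long transcripts (horizontal axis, log2) in each of the 12 libraries, coloured by group and numbered by replicate. In each group the library with the highest length trend had the highest share of members, namely vehicle replicate 4, 10 µM replicate 1 and 50 µM replicate 3. The other 50 µM libraries had higher shares than 10 µM replicate 2 at lower values of the trend.

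By place in the ribosome, the P stalk had the smallest median among the lists of members, 0.10 at 50 µM against vehicle. Rplp0 had 1938, 1780, 2066 and 2620 CPM in vehicle, 2354, 2200, 1896 and 1855 CPM at 10 µM, and 2127, 2080, 2514 and 2091 CPM at 50 µM. Its highest library was vehicle replicate 4 and the groups overlapped. The log2 fold changes of Rplp0, Rplp1 and Rplp2 at 50 µM against vehicle were 0.08 ± 0.11, 0.10 ± 0.10 and 0.15 ± 0.13, and none of the 3 passed with edgeR, while Rplp2 passed in 1 of 20 alternative fits. Without vehicle replicate 2 the value of Rplp0 was -0.0033.

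Rpl5 and Rpl11 form, with 5S rRNA, the particle that also binds Mdm2, the ligase that degrades p53. Rpl5 had 412, 416, 512 and 567 CPM in vehicle, 596, 507, 463 and 469 CPM at 10 µM, and 560, 527, 772 and 595 CPM at 50 µM. Rpl11 had 507, 494, 591 and 634 CPM in vehicle, 614, 597, 533 and 545 CPM at 10 µM, and 607, 591, 728 and 608 CPM at 50 µM. The groups overlapped in both, and the log2 fold changes at 50 µM against vehicle were 0.37 ± 0.13 (adjusted p = 0.0762, edgeR) and 0.19 ± 0.10 (adjusted p = 0.214, edgeR). Of 20 alternative fits Rpl5 passed in 6 and Rpl11 in 1.

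Around the exit of the peptide tunnel, 7 members were listed (Rpl17, Rpl19, Rpl23a, Rpl26, Rpl31, Rpl35 and Rpl39). Their median log2 fold change at 50 µM against vehicle was 0.32, 7 of 7 were positive, beside 96.5% of all members and 51.8% of all genes, and 1, Rpl17, rose, beside 7.0% of all genes called higher. The 17 members known from Diamond-Blackfan anemia had a median of 0.22, with 16 of 17 positive and none past the threshold with edgeR, while 10 of 17 (58.8%) had an unadjusted p under 0.05, beside 45.3% of all members and 27.9% of all genes. Rps19, the gene most often mutated in that disease, had 364, 344, 412 and 484 CPM in vehicle, 476, 437, 382 and 381 CPM at 10 µM, and 472, 469, 586 and 459 CPM at 50 µM (log2 0.32 ± 0.11 at 50 µM against vehicle, adjusted p = 0.0812, edgeR). Rps14, lost in the 5q- syndrome, had 348, 340, 400 and 515 CPM in vehicle, 450, 416, 372 and 353 CPM at 10 µM, and 457, 466, 648 and 436 CPM at 50 µM (log2 0.33 ± 0.14, adjusted p = 0.154, edgeR). In both genes vehicle replicate 4 reached the range of the 50 µM libraries, and of 20 alternative fits Rps19 passed in 4 and Rps14 in 2.

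Rpsa, also known as the laminin receptor precursor, had 1302 CPM ± 222 in vehicle, 1324 CPM ± 180 at 10 µM and 1446 CPM ± 169 at 50 µM (SD, n = 4), a log2 fold change of 0.16 ± 0.12 at 50 µM against vehicle. Rpl41, which encodes the shortest ribosomal protein, had 727 CPM ± 97.5, 767 CPM ± 87.0 and 929 CPM ± 198, a log2 fold change of 0.36 ± 0.13. Rps3a1 had 1050 CPM ± 169, 1054 CPM ± 91.5 and 1208 CPM ± 123, a log2 fold change of 0.21 ± 0.11. None of these 3 passed with edgeR and their groups overlapped, while Rpl41 passed in 4, Rpsa in 1 and Rps3a1 in 1 of 20 alternative fits.

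Paralogs allow the ordinary and the alternative protein to be set side by side. Rpl3, which lies at the peptidyl transferase centre, had 999, 975, 1115 and 1140 CPM in vehicle and 1162, 1200, 1336 and 1220 CPM at 50 µM, with no overlap but an adjusted p of 0.0726 by edgeR (past the threshold in 6 of 20 alternative fits), while Rpl3l had 0.680, 1.37, 1.07 and 2.42 CPM in vehicle and 1.61, 1.06, 0.970 and 0.588 CPM at 50 µM. Per kilobase of exon Rpl3 stood at 333 RPKM and Rpl3l at 0.845 RPKM in vehicle. Rpl7l1, a Rpl7-like protein with a part in ribosome assembly, was the most abundant paralog in CPM and had 157, 151, 163 and 174 CPM in vehicle, 166, 162, 145 and 141 CPM at 10 µM, and 160, 142, 152 and 141 CPM at 50 µM, with a log2 fold change of -0.11 ± 0.07 with adjusted p = 0.37 by edgeR. Rpl7 had 897 CPM ± 140 in vehicle and 997 CPM ± 82.3 at 50 µM (SD, n = 4), a log2 fold change of 0.16 ± 0.10. The difference between the fold changes of Rpl7 and Rpl7l1 was not tested.

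Among the other pairs, the vehicle level was 75.2 RPKM for Rpl22 and 9.48 RPKM for Rpl22l1, 135 RPKM for Rpl39 and 0.468 RPKM for Rpl39l, 540 RPKM for Rps4x and 5.90 RPKM for Rps4l, and 164 RPKM for Rps27 and 88.8 RPKM for Rps27l, a target of p53. The share of 50-base stretches that also occur in other genes differed within each pair, at 98.6% in Rps27 and 22.4% in Rps27l, 24.5% in Rpl22 and 57.3% in Rpl22l1, 16.2% in Rpl39 and 0% in Rpl39l, 72.2% in Rps4x and 14.9% in Rps4l, and 85.6% in Rpl3 and 0% in Rpl3l. The levels within these pairs are therefore given side by side only, and their ratios are not read. For Rps27l the log2 fold change at 50 µM against vehicle was 0.26 ± 0.13, beside 0.30 ± 0.14 for Rps27. Those of Rpl22 and Rpl22l1 were 0.28 ± 0.11 and 0.18 ± 0.12, and those of Rps4x and Rps4l were 0.09 ± 0.11 and 0.12 ± 0.16. None of these 6 passed with edgeR, and Rps27, Rps27l and Rpl22 each passed in 1 of 20 alternative fits. Rpl39 had a log2 fold change of 0.21 ± 0.12 and Rpl10 one of 0.15 ± 0.11, likewise not past the threshold with edgeR (Rpl39 passed in 1 of 20 alternative fits), while Rpl10l, the testis paralog of Rpl10, had 0 counts. Rpl36a had 169 CPM ± 25.8 in vehicle and 202 CPM ± 24.0 at 50 µM (SD, n = 4), and Rpl36al, which the symbol rule leaves out, 0.964 CPM ± 0.347 and 1.29 CPM ± 0.412. Over the 8 paralog rows tested, of which Rps3a2, Rps3a3 and Rps4l are annotated pseudogenes, the median log2 fold change was 0.15 at 50 µM against vehicle and -0.02 against 10 µM.

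Rows of near-identical copies had a median close to that of the members. The 298 rows named as ribosomal protein pseudogenes, of which 118 were tested, took 0.197% ± 0.0219 of counts in vehicle, 0.198% ± 0.0138 at 10 µM and 0.228% ± 0.0229 at 50 µM (SD, n = 4). Their median log2 fold change at 50 µM against vehicle was 0.25, with 108 of 118 positive (91.5%, beside 51.8% of all genes) and 3 called higher (2.54%, beside 7.0% of all genes). Among members, the 14 with under 25% of their 50-base stretches in another gene had a median of 0.21 and the 21 with over 75% had a median of 0.23. The part of shared sequence in these values was not tested.

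Of 57 genes of RNA polymerase I and rRNA processing, none rose and 8 fell against vehicle, beside 7.0% of all genes called higher and 6.5% called lower, with a median of -0.08 and 21 of 57 positive (36.8%, beside 51.8% of all genes). Ubtf, the transcription factor of rRNA genes, went from 191 CPM ± 15.7 to 142 CPM ± 10.4 (log2 -0.42 ± 0.08, adjusted p = 0.0038, edgeR), and Heatr1, of the small subunit processome, from 143 CPM ± 7.75 to 103 CPM ± 15.3 (log2 -0.47 ± 0.10, adjusted p = 0.0073, edgeR). Against 10 µM, 1 of the 57, Nop56 of the snoRNA particles that methylate rRNA, rose from 103 CPM ± 2.59 to 126 CPM ± 9.88 and 6 fell (SD, n = 4). In that comparison 7.52% of all genes were called higher and 7.85% lower. At 10 µM against vehicle none of the 57 passed with edgeR, and 1 (1.75%) had an unadjusted p under 0.05, beside 8.78% of all genes.

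Among 37 translation initiation and elongation factors, many of which also have TOP mRNAs, 2 rose and 1 fell at 50 µM against vehicle, with a median of 0.10. The 2 are 5.41% of the list, beside 7.0% of all genes called higher and 6.5% called lower. Eif4a2, an mRNA helicase, rose from 124 CPM ± 18.1 to 220 CPM ± 41.2 (log2 0.84 ± 0.13, adjusted p = 0.0010, edgeR), Eif2s2 of the initiation factor that brings the first tRNA rose from 165 CPM ± 13.8 to 206 CPM ± 17.1, and Eif3b fell from 414 CPM ± 23.3 to 335 CPM ± 34.5 (SD, n = 4). Of 7 chaperones and importers of ribosomal proteins, Nap1l1 rose (log2 0.31 ± 0.08, adjusted p = 0.0194, edgeR) and none fell against vehicle, while Nap1l1 rose and 3, among them Tsr2 and Heatr3, fell against 10 µM. Over all genes, 7.52% were called higher and 7.85% lower against 10 µM. Of 77 mitochondrial ribosomal proteins, 1, Mrps10, rose against vehicle, none fell, and the median was 0.07, while against 10 µM 1, Mrps30, rose. Each is 1.30% of this list, beside 7.0% of all genes called higher against vehicle and 7.52% against 10 µM. Of the ribosomal proteins that the symbol rule leaves out, Rack1, the scaffold on the small subunit head, had 1059 CPM ± 159, 1086 CPM ± 115 and 1303 CPM ± 146 in the 3 groups and rose against 10 µM (log2 0.27 ± 0.09, adjusted p = 0.0474, edgeR). Of 20 alternative fits each, including those without 1 library, this call of Rack1 was lost in 8, that of Mrps30 in 10, that of Mrps10 in 6, that of Heatr3 in 8 and that of Eif3b against vehicle in 5. Against vehicle the call of Nap1l1 was lost in 4 and those of Eif2s2, Max and Mxi1 in 3 each, and against 10 µM that of Tsr2 was lost in 2. The call of Rack1 was lost without any 1 of replicates 2, 3 and 4 of either group, that of Mrps30 without any 1 library other than 50 µM replicate 3, and that of Mrps10 without any 1 library other than vehicle replicate 4 and 50 µM replicate 1.

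The 19 genes of MYC and mTORC1 control had a median log2 fold change of -0.03 at 50 µM against vehicle, beside 0.01 over all genes. Among them 2 rose (10.5%) and 2 fell, beside 7.0% of all genes called higher and 6.5% called lower. Ddit4 and Sesn2, stress-induced inhibitors of mTORC1, rose from 19.5 CPM ± 3.29 to 30.5 CPM ± 5.62 (log2 0.65 ± 0.14) and from 74.7 CPM ± 1.85 to 105 CPM ± 6.85 (log2 0.50 ± 0.07), with adjusted p of 0.0094 and 5e-04 by edgeR. Max, the partner of MYC, and Mxi1, which competes for Max, fell by 0.28 ± 0.07 and 0.32 ± 0.09 on the log2 scale. Myc itself had 166 CPM ± 8.02 in vehicle and 162 CPM ± 8.69 at 50 µM (log2 -0.03 ± 0.07, adjusted p = 0.819, edgeR). Of 17 proliferation genes, 11 fell and none rose at 50 µM against vehicle, beside 6.5% of all genes called lower and 7.0% higher, with a median of -0.35. The same 4 control genes were called in the same directions against 10 µM, a comparison that uses the same 50 µM libraries. In it 11 of the 17 proliferation genes fell and none rose (median -0.26), beside 7.52% of all genes called higher and 7.85% lower.

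**Figure D5:**
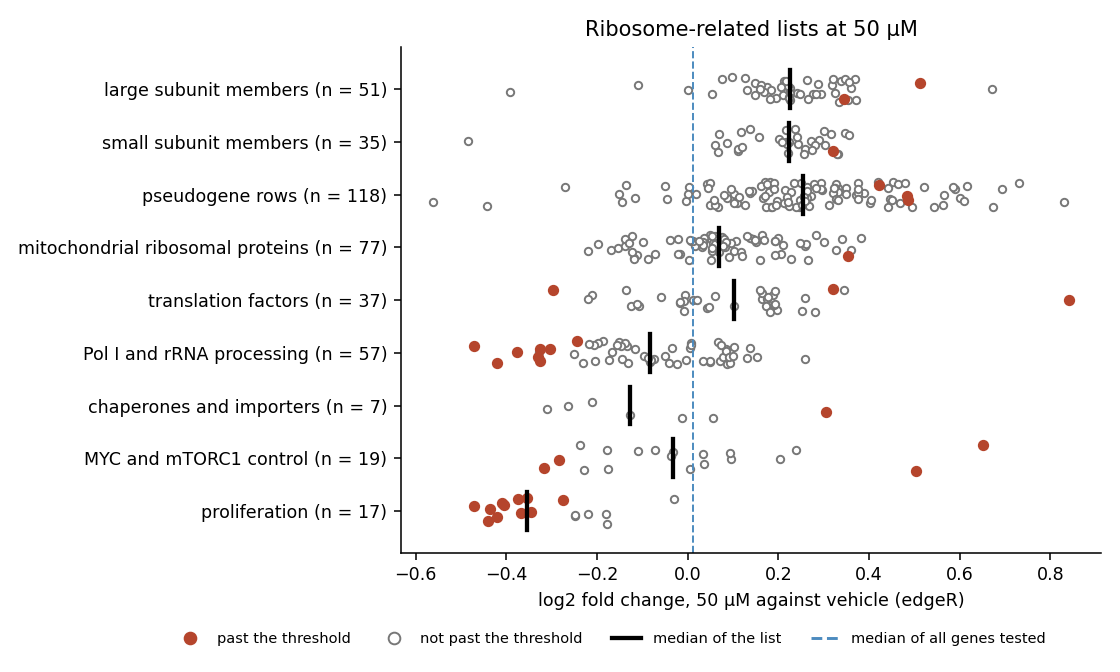
The log2 fold change at 50 µM against vehicle (horizontal axis, edgeR) of every gene tested in 9 lists; red points passed the adjusted threshold in either direction, black bars are list medians and the dashed line is the median of all genes tested. Members and pseudogene rows lay to the right with medians of 0.22 to 0.25, mitochondrial ribosomal proteins and translation factors near 0.1, and Pol I and rRNA processing and proliferation genes to the left.

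Markers of cell state differed between the same groups. Over all genes, 7.0% were called higher and 6.5% lower at 50 µM against vehicle. At 50 µM against vehicle, 3 of 5 monocyte markers fell (median of the list -0.74 on the log2 scale), 3 of 8 neutrophil markers fell and 1 rose with a median of -0.37, and 3 of 8 pan-myeloid markers rose with a median of 0.21. Of 9 macrophage markers 2 rose and 2 fell with a median of 0.07, and of 9 progenitor markers tested 2 rose and 3 fell with a median of 0.02. The summed monocyte markers ranged from 2532 to 3227 CPM in vehicle and from 2212 to 2951 CPM at 50 µM, and the summed neutrophil markers from 16338 to 23055 CPM and from 12779 to 17368 CPM. Of 7 B cell markers 5 rose with a median of 1.06, at 19.1 to 27.6 CPM summed in vehicle and 38.6 to 61.9 CPM at 50 µM. Of 4 stromal markers tested 1, Lepr, fell and 4 of 4 were negative (median -0.70), with 8.74 to 14.1 CPM summed in vehicle and 5.24 to 6.76 CPM at 50 µM. Of 6 mast cell and basophil markers 1, Gata2, which progenitors also express, rose against vehicle (median 0.17), with 326 to 397 CPM summed in vehicle and 364 to 472 CPM at 50 µM. None of the B cell or neutrophil markers was at 0 over all libraries. At 10 µM against vehicle, where no member passed, 3 of 9 macrophage markers and 1 of 5 monocyte markers rose, beside 0.329% of all genes called higher. At 50 µM against 10 µM, 5 of 5 monocyte markers fell (median -0.96). Of 9 macrophage markers 6 fell and 1 rose (median -0.33), and of 8 neutrophil markers 3 fell and 1 rose (median -0.18). Of 9 progenitor markers tested 3 rose and 1 fell (median 0.20), 5 of 7 B cell markers rose (median 0.72) and 1 of 8 pan-myeloid markers rose. All genes had 7.52% called higher and 7.85% lower there. The part of these cell types in the levels of the members was not tested.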

How the data were processed

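The deposited file holds raw counts per Ensembl gene in 12 libraries, which the authors made by trimming, aligning reads to mm10 with HISAT2 2.2.1 and counting with featureCounts 2.0.1 (tool versions from the submitters' processing notes). The kit keeps strand. The strand setting and the handling of reads that match several genes are not given in the sources used here. The 14894 genes that exceeded 0.5 CPM in 2 or more libraries were tested with edgeR 4.0.16 (TMM, quasi-likelihood, R 4.3.3) on the 8 libraries of each comparison, with Benjamini-Hochberg adjustment at 0.05, after the fit was checked on simulated counts. DESeq2 1.42.0, limma-voom (limma 3.58.1), other scalings and filters, offsets for length and GC, and leaving out each library were alternatives. RPKM used the union of GENCODE M21 exons (GRCm38). Length trends used lowess (span 0.3) over principal transcripts. Depth was 20451312 to 28038612 counts per library, so at the levels of most members the spread between replicates, more than counting error, sets the precision.

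The members and lists were chosen with earlier results of these data known, and no list is given a p. Named genes were up to 5 largest rises and falls past the threshold in each comparison (the 2 smallest p where none passed), the 3 highest and lowest levels per exon length, a set fixed by role, and the 2 largest rises and falls in each related list. No 2 replicates agreed within sampling noise. Some members are counted but not reported here by name. Marker lists were described by summed levels, median fold changes and counts of genes past the threshold.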

Additional observations from a re-analysis of the deposited data

Results flagged for a closer look

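Of 111 groups of 4 libraries examined, over library measures and single members, 14 held a library whose gap to the nearest of the others, as a share of the range of the group, was above Dixon's critical value. Chance flags about 1 group in 20, and levels of members rise and fall together within a library, so these are not 14 separate events. The library was 50 µM replicate 3 in every case. Its members took 4.89% of counts, against 4.01% to 4.08% in the other 50 µM libraries, and its fitted level of short minus long transcripts was 0.23 on the log2 scale, against -0.02 to 0.02.

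The single members that stood apart in this library were 6 of the large and 6 of the small subunit. Rplp0 had 2514 CPM against 2080 to 2127 CPM in the other 3 libraries of the group, Rpl11 728 against 591 to 608 CPM, Rpl9 917 against 637 to 665 CPM, and Rpl17 493 against 329 to 332 CPM. Rpl36a had 238 against 187 to 194 CPM and Rpl39 had 269 against 205 to 214 CPM. Of the small subunit, Rps6 had 1086, Rps14 648, Rps18 1007, Rps19 586, Rps23 609 and Rps27a 816 CPM, each above the other 3 libraries. The part of transcript length or of any other property of this library in these values was not tested.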

How the results depend on the processing

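Alternatives that changed a number of calls did so without changing its direction, except for 1 member called lower when 10 µM replicate 1 was left out. At 50 µM against vehicle, 3 members were called higher, beside 7.0% of all genes. The number was 10 with DESeq2 (beside 8.47% of all genes called higher), 6 with library totals in place of TMM (6.94%), 19 with no filter on low counts (4.52%), 14 with an offset for exon length (8.29%), 16 with an offset for transcript length (8.65%) and 5 in a fit of all 12 libraries (7.84%). At 50 µM against 10 µM the 8 members, beside 7.52% of all genes, became in the same order 14 (8.97%), 15 (8.08%), 30 (5.55%), 27 (9.12%), 32 (9.67%) and 2 (5.82%). Leaving out 1 library gave 1 to 61 against vehicle, 1 to 28 against 10 µM, and 0 to 1 called lower against 10 µM. The cause was not tested. At 10 µM against vehicle no alternative called a member, and leaving out 1 library moved the median from -0.02 to 0.14. Whether the replicate numbers pair the libraries was not settled. Correlations of same-numbered deviations ran from -0.46 to 0.25, beside -0.45 to 0.46 for differently numbered ones. With 4 libraries per group that vary together, these values cannot decide it. A fit with replicate block gave 10 members higher against vehicle, beside 6.67% of all genes, and 5 against 10 µM, beside 7.4%.

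The large minus small level turned from -0.23, -0.27 and -0.31 in vehicle, 10 µM and 50 µM by medians to 0.36, 0.38 and 0.37 as the log2 ratio of summed counts, which also depends on the number of genes, and was -0.25, -0.23 and -0.23 with means, and -0.21, -0.14 and -0.23 without paralogs and members under 10 CPM. The order of the doses was thus not kept. At 50 µM against vehicle, Rplp1 turned from 0.10 to -0.0072 and -0.0154 with the exon and transcript length offsets. Leaving out 1 library gave -0.0033 to 0.20 for Rplp0, lowest without vehicle replicate 2, and -0.66 to 0.0224 for Rpl3l, highest without vehicle replicate 4. None of these was called. Strand and multiple-match settings of the counting, and the sharing of sequence between members and other genes, limit what a level of a single member means.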
